A study of Sus scrofa with 15 samples.

Results

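CYR61, CTGF, ANKRD1 and F3 are genes whose transcription the coactivators YAP and TAZ raise through the TEAD transcription factors. They were followed in pig granulosa cells, which surround the oocyte in the ovarian follicle and make estradiol, while these cells lost their differentiated state in culture. The genes were chosen by name: a probe set counted when the array annotation gave it 1 gene symbol and that symbol was 1 of the 4 genes, with CCN1 and CCN2 accepted for CYR61 and CTGF. CYR61 and F3 had 1 probe set each and ANKRD1 had 2, so 4 of the 23999 probe sets on the array stood for 3 of the 4 genes. CTGF had no probe set under either of its names and was not analysed here.

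Total RNA was measured on Affymetrix porcine genome arrays on days 0, 1, 2, 4 and 7, with 3 arrays for each day and 15 in all. Cells of day 0 are labelled as granulosa cells from pig ovarian follicles, those of days 1, 2 and 4 as dedifferentiating in culture, and those of day 7 as dedifferentiated (DFOG) cells grown to semiconfluence. Breed, age, pooling of animals and culture medium are not given in the sources used here, and no treatment or genetic change is named for any day. The labels call the 3 replicates of a day biological without saying whether they came from separate animals or cultures, and p-values therefore rest on a spread between arrays that may be technical.

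YAP and TAZ shuttle between cytoplasm and nucleus. When the Hippo kinases are active they phosphorylate both coactivators, which are then held in the cytoplasm or degraded; a spread cell shape, a stiff substrate, actin tension and low cell density favour their entry into the nucleus, where TEAD factors carry them to DNA. In the ovary, disruption of Hippo signaling by cutting the tissue is known to raise CCN growth factors and follicle growth. These are background facts, and neither YAP protein nor its position in the cell was measured on these arrays.

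Values are log2 intensities, so that a difference of 1 is a 2-fold change, and they compare a gene with itself between days, not genes with each other. Changes of at least 1 in size counted as called if limma gave them an adjusted p under 0.05 (Benjamini-Hochberg, over all 23999 probe sets). Array medians lay between 6.40 and 6.55 and lower quartiles between 4.41 and 4.68. All 15 arrays read CYR61, F3 and the brighter ANKRD1 probe set above the array's lower quartile. The smallest margin was 0.24, for ANKRD1. The arrays of replicate 1 stood apart from the others on all 5 days along the third principal component, which held 13.1% of the variance, with scores of 29.4 to 48.1 against -41.4 to -5.78 for replicates 2 and 3. Day 4 replicate 2 had the largest difference between 3′ and 5′ probe sets, 2.12 for actin and 3.52 for the added dap control, where the other day 4 arrays had at most 0.629 and 1.29. Leaving that array out changed no call of F3, CYR61 or ANKRD1. The actin difference, a sign of RNA integrity, was 0.194 to 0.589 on day 7, against 0.967 to 1.68 on day 0. The difference of the added dap control was also smaller on day 7, at 1.25 to 1.45, against 1.72 to 1.77 on day 0. The part of either in the changes below was not tested. The label of day 0 was checked on granulosa genes, and the 10 granulosa markers averaged 9.53 to 9.67 on its arrays. Among them INHA, HSD17B1 and FST averaged 14.26, 13.52 and 13.32 there. These genes were named for their large called change between day 0 and day 7, so their day 0 levels are no separate check of the label.

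All 3 measured genes were called higher on day 7 than on day 0, as were 9.36% of all probe sets. CYR61 and ANKRD1 lost this call when some single arrays were left out, and F3 kept it. F3 rose within the first day of culture and stood 33.4-fold above day 0 on day 7. CYR61 and ANKRD1 had no called change on days 1 and 2, and on day 7 they were 2.50-fold and 4.55-fold above day 0. A difference in timing between F3 and the other genes is not shown by these calls. Each of the 3 genes varied with day of culture in the moderated F test of limma, with adjusted p = 5.03e-07 for F3, 0.0159 for CYR61 and 0.0204 for ANKRD1. The same test called 23.6% of all probe sets. In bulk RNA, fewer cells of a type and less RNA per cell cannot be told apart, and this holds for every change below.

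**Figure D1:**
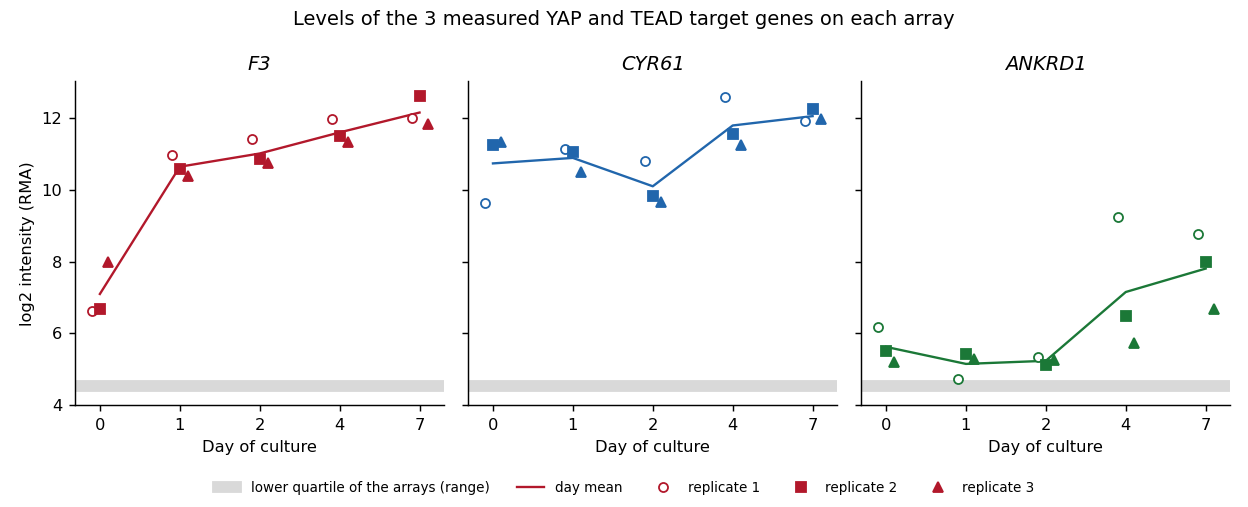
Log2 intensity of F3, CYR61 and ANKRD1 (vertical axis) on days 0, 1, 2, 4 and 7 of culture (horizontal axis), with a point for each of the 3 arrays of a day and a line through the day means. All F3 arrays of days 1 to 7 lie above those of day 0, and for CYR61 and ANKRD1 all arrays of days 4 and 7 lie above those of days 1 and 2; the grey band is the range of the lower quartiles, 4.41 to 4.68.

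F3 encodes tissue factor, the cell surface receptor for coagulation factor VII that starts blood clotting. Replicates 1, 2 and 3 had F3 at 6.63, 6.69 and 7.99 on day 0, at 10.99, 10.58 and 10.40 on day 1 and at 11.42, 10.88 and 10.77 on day 2. They had it at 11.99, 11.50 and 11.35 on day 4 and at 12.02, 12.63 and 11.84 on day 7. Every cultured array lay above every day 0 array, and replicate 3 was the highest of day 0. Day 1 exceeded day 0 by 3.55 ± 0.34 (SE, 95% confidence interval 2.82 to 4.29, adjusted p = 5.83e-06 by limma), which is 11.7-fold. Only 0.321% of probe sets had a larger rise between these days. Day 7 exceeded day 0 by 5.06 ± 0.34 (4.33 to 5.80, adjusted p = 9.20e-08 by limma). The rise of the first day made up 70.1% of the log2 rise seen on day 7.

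After day 1 the day means of F3 kept their order, 10.65 ± 0.30 on day 1, 11.02 ± 0.35 on day 2, 11.61 ± 0.34 on day 4 and 12.17 ± 0.42 on day 7 (SD, n = 3), above 7.10 ± 0.77 on day 0. Differences of days 2, 4 and 7 from the sampled day before them were not called, at 0.37, 0.59 and 0.55 (adjusted p = 0.716, 0.525 and 1.00 by limma, and 0.616, 0.400 and 0.819 with replicate number as a block). Between arrays of the same number F3 was higher each time. The differences were 0.44, 0.30 and 0.37 on day 2 over day 1, and 0.57, 0.62 and 0.58 on day 4 over day 2. On day 7 over day 4 they were 0.04, 1.13 and 0.49. Nothing in the labels pairs arrays by number, so these differences are only a description. Over a longer interval a further rise was called: day 7 exceeded day 1 by 1.51 ± 0.34 (adjusted p = 0.00654 by limma), and all 3 arrays of day 7 lay above all 3 of day 1. Day 7 exceeded day 2 by 1.14 ± 0.34 and did not pass (adjusted p = 0.0569 by limma), but it passed in 12 of 25 alternatives. These were the removal of day 0 replicate 1 or 3 or day 2 replicate 1 (adjusted p = 0.0484, 0.0137 and 0.0462 by limma) and 9 other settings, which were the 3 scalings, the filter on dim probe sets, trend and robust eBayes, array weights, the replicate block, replicates 2 and 3 only, and the 6 arrays alone. Over all 25 alternatives the adjusted p ran from 4.62e-04 to 0.227. The F3 calls against day 0, and that of day 7 against day 1, kept their direction and their side of the threshold under all alternative settings and after the removal of each array in turn.

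CYR61, also named CCN1, encodes a secreted matrix protein that binds integrins and heparan sulfate and is among the most used readouts of YAP activity. The mean of its probe set over the 15 arrays lay at percentile 97.1 of all probe sets. Replicates 1, 2 and 3 had CYR61 at 9.63, 11.27 and 11.34 on day 0, at 11.14, 11.06 and 10.50 on day 1 and at 10.81, 9.84 and 9.67 on day 2. They had it at 12.60, 11.56 and 11.25 on day 4 and at 11.94, 12.27 and 11.99 on day 7. Replicate 1 of day 0 was 1.67 below the mean of the other 2 arrays of that day, and the arrays of each other day lay closer together. The day 7 arrays lay above all arrays of days 0, 1 and 2, while days 0, 1 and 2 overlapped each other.

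In order of level, CYR61 averaged 10.11 ± 0.62 on day 2, 10.75 ± 0.97 on day 0, 10.90 ± 0.35 on day 1, 11.80 ± 0.71 on day 4 and 12.07 ± 0.18 on day 7 (SD, n = 3), and no neighbours in this order differed by a called change. Day 7 exceeded day 2 by 1.96 ± 0.45 (3.88-fold, adjusted p = 0.0145 by limma) and day 0 by 1.32 ± 0.45 (95% confidence interval 0.35 to 2.29, adjusted p = 0.0394 by limma). Day 4 exceeded day 2 by 1.70 ± 0.45 and did not pass the adjusted p (0.0529 by limma), although all 3 arrays of day 4 lay above those of day 2; with replicate number as a block the adjusted p was 0.041. The call of day 7 against day 0 was lost without day 0 replicate 1, at 0.76 (adjusted p = 0.174 by limma), and without day 1 replicate 2 or day 7 replicate 1, 2 or 3 (adjusted p = 0.0502, 0.0707, 0.113 and 0.0787). It was also lost at 1.05 when the arrays were quantile-normalized again or scaled by cyclic loess (adjusted p = 0.0779 and 0.0813 by limma), on the 6 arrays alone (adjusted p = 0.0566), and under the minimum change with array weights (0.95) and with replicates 2 and 3 only (0.83), so in 10 of 25 alternatives in all. The call of day 7 against day 2 was lost without day 2 replicate 2 or 3 or day 7 replicate 2 (adjusted p = 0.0651, 0.0682 and 0.0596 by limma). Without day 0 replicate 1, day 2 was lower than day 0 by a called change, -1.20 (adjusted p = 0.0405 by limma), and day 7 higher than day 1 and day 4 higher than day 2 (adjusted p = 0.0322 and 0.0149). Day 4 also passed against day 2 without day 2 replicate 1 (adjusted p = 0.0304 by limma).

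ANKRD1 encodes an ankyrin repeat protein best known from heart and skeletal muscle, where it binds titin in the sarcomere and acts as a cofactor in the nucleus. The mean of its probe set lay at percentile 45.3 of all probe sets. Replicates 1, 2 and 3 had ANKRD1 at 6.18, 5.51 and 5.19 on day 0, at 4.72, 5.44 and 5.29 on day 1 and at 5.35, 5.11 and 5.26 on day 2. They had it at 9.25, 6.50 and 5.73 on day 4 and at 8.78, 7.98 and 6.68 on day 7. Days 0, 1 and 2 overlapped, all arrays of days 4 and 7 lay above those of days 1 and 2, and replicate 1 was the highest array on both late days.

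In order of level, ANKRD1 averaged 5.15 ± 0.38 on day 1, 5.24 ± 0.12 on day 2, 5.63 ± 0.50 on day 0, 7.16 ± 1.85 on day 4 and 7.81 ± 1.06 on day 7 (SD, n = 3), and no neighbours in this order differed by a called change. Day 7 exceeded day 0 by 2.19 ± 0.71 (adjusted p = 0.0305 by limma), day 1 by 2.66 ± 0.71 (6.32-fold, adjusted p = 0.0173) and day 2 by 2.57 ± 0.71 (5.95-fold, adjusted p = 0.0382). On day 4 the excess over day 0 was 1.53 ± 0.71 (adjusted p = 0.123 by limma). Without day 4 replicate 1 that excess was 0.49 (adjusted p = 0.510), and without day 4 replicate 3 it was 2.25 and called (adjusted p = 0.0302 by limma). The excess of day 7 over day 0 lost its call without day 7 replicate 1, at 1.70 (adjusted p = 0.127 by limma), and without day 7 replicate 2 or day 0 replicate 2 or 3, with adjusted p = 0.0817, 0.0771 and 0.0985. The excess over day 1 lost its call without day 1 replicate 1 or day 7 replicate 1 or 2 (adjusted p = 0.0570, 0.0794 and 0.0565 by limma). The excess over day 2 lost its call on removal of any 1 of 8 arrays, which were the 3 of day 2, day 0 replicate 2, day 1 replicates 2 and 3, and day 7 replicates 1 and 2, with adjusted p of 0.0522 to 0.162 by limma.

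The second ANKRD1 probe set read 2.87 to 3.96 and lay below the lower quartile on all 15 arrays. It had no called change in any comparison, and its day 7 excess over day 0 was 0.25 (adjusted p = 0.384 by limma). The ANKRD1 results above therefore come from 1 probe set, and the other gives no level that could be set against it.

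The counts of called genes follow from these values. Day 1 against day 0 called F3 alone of the 3 genes, where 12.5% of all probe sets were called, 6.47% as higher and 6.03% as lower. F3 was again the only one called on day 2 (13.8% of all probe sets called) and on day 4 (15.9%), each against day 0. Day 7 against day 0 called all 3 genes as higher, beside 16.6% of all probe sets called, made up of 9.36% called higher and 7.28% called lower. The day 7 arrays of all 3 genes lay above their day 0 arrays without overlap, as did those of 23% of all probe sets. Within culture, day 7 against day 1 called F3 and ANKRD1 (9.03% of all probe sets called), and day 7 against day 2 called CYR61 and ANKRD1 (4.73%).

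No member of the 3 was called by limma in the remaining comparisons. Day 2 against day 1 called 0 of 3, with 0 at an unadjusted p under 0.05 and 3.04% of all probe sets called. Day 7 against day 4 also called 0 of 3, with 0 at an unadjusted p under 0.05 and 0.0583% of all probe sets called. Day 4 against day 1 and day 4 against day 2 called 0 of 3 each, but 2 genes had an unadjusted p under 0.05 in each, where 7.66% and 2.53% of all probe sets were called. With replicate number as a block, ANKRD1 passed on day 4 against day 1 (adjusted p = 0.025) and F3 on day 7 against day 2 (adjusted p = 0.047, against 0.0569 without the block).

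**Figure D2:**
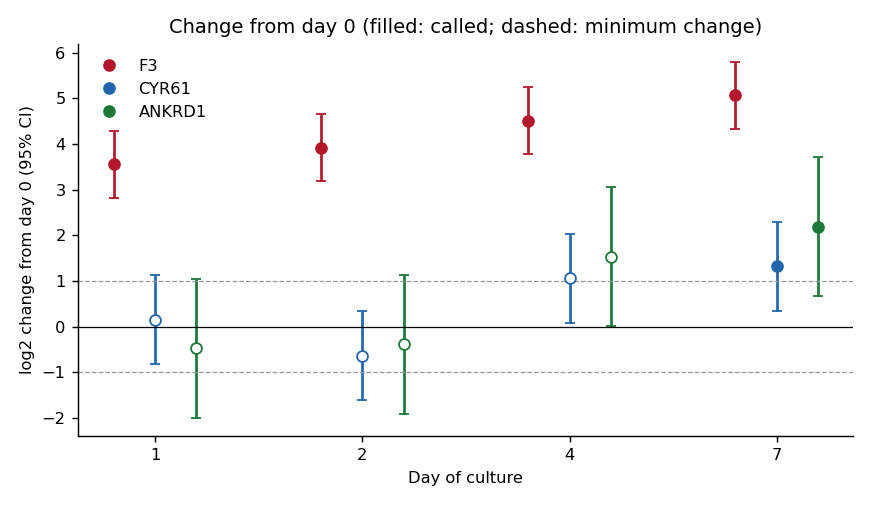
Log2 change from day 0 (vertical axis) of F3, CYR61 and ANKRD1 on days 1, 2, 4 and 7 (horizontal axis), with 95% confidence intervals from limma, filled points for called changes and dashed lines at the minimum change of 1. F3 is called on all 4 days, and the intervals of CYR61 and ANKRD1 include 0 on days 1 and 2 and lie above it on days 4 and 7.

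Replicate spread differed between the genes on days 4 and 7. On day 4 the range over 3 arrays was 3.52 for ANKRD1, 1.35 for CYR61 and 0.64 for F3, and on day 7 it was 2.10, 0.33 and 0.79. The SD of ANKRD1 stood at percentile 99.9 of all probe sets on day 4 and 99.6 on day 7, where the median SD of all probe sets was 0.208 and 0.172. CYR61 stood at percentile 93.9 on day 4 and 52.4 on day 7, and F3 at 72.8 and 89.1. On day 4 replicate 1 exceeded the mean of replicates 2 and 3 by 3.14 for ANKRD1, 1.20 for CYR61 and 0.57 for F3. On day 7 that excess was 1.45 for ANKRD1, -0.19 for CYR61 and -0.21 for F3, so replicate 1 stood high on both late days for ANKRD1 only among these genes. Replicate 1 also stood apart on the third principal component, and its part in this spread was not tested. With replicates 2 and 3 alone, ANKRD1 was 1.98 higher on day 7 than on day 0 (adjusted p = 0.00167 by limma).

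**Figure D3:**
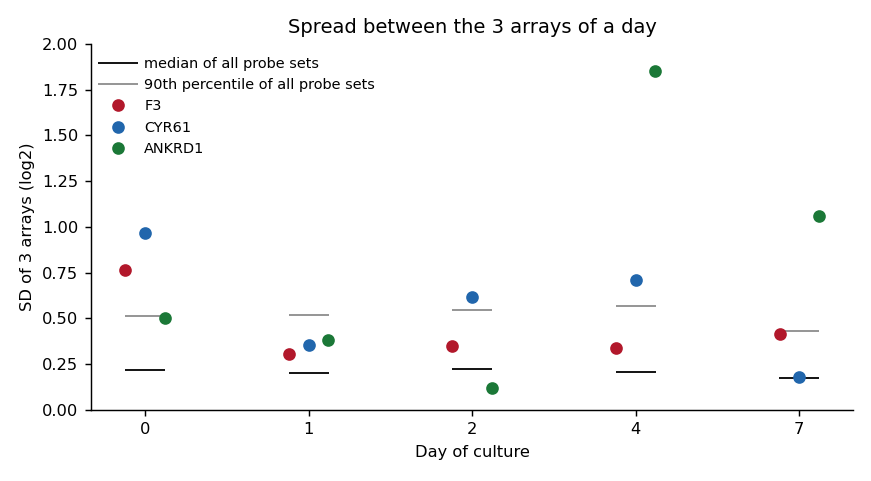
SD of the 3 arrays of a day (log2, vertical axis) of F3, CYR61 and ANKRD1 on days 0, 1, 2, 4 and 7 (horizontal axis), with bars at the median (black) and 90th percentile (grey) of the SD of all probe sets. ANKRD1 has an SD of 1.85 on day 4 and 1.06 on day 7, and CYR61 lies at 0.18 on day 7.

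Because days 4 and 7 lay above days 1 and 2 for CYR61 and ANKRD1, the 6 late arrays were set against the 6 early ones after these values were seen, as a description with no test. For CYR61 the lowest array of days 4 and 7 read 11.25 and the highest of days 1 and 2 read 11.14. For ANKRD1 these values were 5.73 and 5.44, so both genes were higher on all late arrays, by a narrow margin. F3 overlapped, with 11.35 as its lowest late and 11.42 as its highest early array. Of all probe sets, 5.21% were higher on all late arrays than on all early ones.

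On day 1 against day 0 the F3 change exceeded that of CYR61 by 3.40 and that of ANKRD1 by 4.03, and on day 7 against day 0 by 3.74 and 2.88. These differences are given as a description. The exact permutation test of 3 arrays against 3 cannot give a two-sided p under 0.1, so it could not have called any of them. That test therefore cannot decide whether F3 changed more. The limma 95% confidence interval of F3 on day 1 against day 0 was 2.82 to 4.29. It lay above those of CYR61, -0.82 to 1.13, and ANKRD1, -2.00 to 1.05. On day 7 against day 0 it was 4.33 to 5.80, above 0.35 to 2.29 for CYR61 and 0.66 to 3.71 for ANKRD1. By these intervals, each made for 1 gene and not adjusted for comparing genes, the F3 change was the larger on each of these days. ANKRD1 lay as little as 0.24 above the lower quartile of an array. The part of this low level in the size of its change was not tested. Whether F3 changed earlier than the other genes was not tested. Over all 15 arrays the levels correlated at r = 0.696 for CYR61 and ANKRD1, 0.464 for CYR61 and F3, and 0.430 for ANKRD1 and F3. Across the 12 cultured arrays alone, without day 0, these were 0.815, 0.811 and 0.813. With day means removed, the correlations over 15 arrays were 0.268, 0.700 and 0.175. The correlations of levels hold the change with time, and all of these values describe and carry no p. For CYR61 and F3, replicate 1 differed from the mean of replicates 2 and 3 in the same direction on every day. Its part in the value of 0.700 was not tested.

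The removal of each array in turn shows on which arrays the day 7 results rest. F3 stayed between 4.83 and 5.50 in its excess over day 0 and was called each time. CYR61 ranged from 0.76 to 1.62 and ANKRD1 from 1.70 to 2.75, and both lost their call in several of these fits. With replicates 2 and 3 alone the excess of CYR61 was 0.83, under the minimum change.

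**Figure D4:**
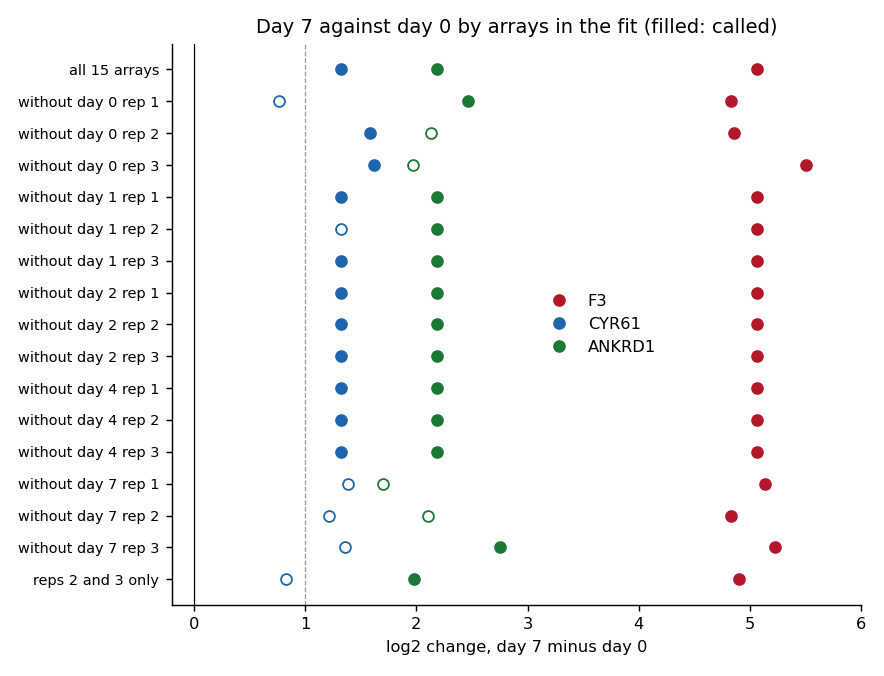
Log2 difference of day 7 minus day 0 (horizontal axis) for F3, CYR61 and ANKRD1 in fits with all 15 arrays, without each array in turn and with replicates 2 and 3 only (rows), filled where called, with a dashed line at the minimum change of 1. F3 stays near 5.06, while open points mark 6 fits of CYR61 and 4 of ANKRD1 that lost their call.

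The genes whose levels ran most like each member over the 15 arrays were sought among the 2144 named genes with day means at least 1 apart. For F3 these were RTN4 and ACTN1 (r = 0.978 each) and CLU (r = 0.974). ACTN1, an actin cross-linker, averaged 6.89 on day 0 and 11.46 on day 1. For CYR61 they were PRKAA2 (r = 0.898), BCAS4 (0.870) and HPSE (0.863), and for ANKRD1 they were SLC2A5 (0.932), UNC45B (0.896) and LIMS2 (0.891). HPSE, which cleaves heparan sulfate, averaged 5.14, 5.57, 4.18, 6.27 and 7.37 on days 0, 1, 2, 4 and 7. UNC45B, a muscle myosin chaperone, averaged 5.61, 5.53, 6.02, 7.28 and 8.32 on the same days. Genes that move with culture time correlate with each other in this design. Over the 10 arrays of replicates 2 and 3 the 9 correlations lay between 0.817 and 0.969. These genes were picked on all 15 arrays, which hold those 10, so this range is no separate check.

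The machinery that acts on these genes was only in part readable. YAP1, WWTR1 (which encodes TAZ), TEAD2, TEAD3 and LATS1 had no named probe set and were not analysed here. Of 10 listed coactivators and TEAD factors, 4 were measured. Day 7 against day 0 called 2 higher, with a median change of 1.21 against -0.05 over all probe sets, and day 1 against day 0 also called 2 higher, with a median of 1.36 against -0.0012. Of all probe sets, 9.36% were called higher on day 7 and 6.47% on day 1. TEAD4, one of the DNA-binding partners of YAP, rose by 1.94 on day 1 and by 1.59 ± 0.18 on day 7, each against day 0 (adjusted p = 1.41e-05 on day 7 by limma). VGLL3, a TEAD cofactor of the vestigial-like family, rose by 4.45 ± 0.55 on day 7 (adjusted p = 2.78e-05). TEAD1 was 0.83 ± 0.33 higher on day 7 (adjusted p = 0.0744 by limma) and VGLL4 differed by -0.07, and neither was called.

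Of 24 listed Hippo kinases and regulators, 8 were measured. Day 7 and day 1 each called 3 higher than on day 0, where 9.36% and 6.47% of all probe sets were called higher, with median changes of 0.77 and 0.93 against -0.05 and -0.0012 over all probe sets. AMOTL1, an angiomotin that binds YAP at junctions, rose by 2.35 ± 0.43 (adjusted p = 7.51e-04 by limma). RASSF1, a scaffold of the Hippo kinases, rose by 1.62 ± 0.18 and MAP4K4, a kinase that acts on LATS, by 1.20 ± 0.32 (adjusted p = 8.00e-06 and 0.00998). LATS2, the kinase that phosphorylates YAP and is itself a target of YAP, was 0.83 ± 0.14 higher (adjusted p = 3.26e-04 by limma), under the minimum change of 1.

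Of 36 other listed YAP and TEAD targets, 18 were measured. Day 1 against day 0 called 6 higher and 1 lower, with a median change of 0.73 against -0.0012 over all probe sets, and day 7 against day 0 called 8 higher and 1 lower, with a median of 1.21 against -0.05. Of all probe sets, 12.5% were called on day 1 and 16.6% on day 7. THBS1, the matrix protein thrombospondin, rose by 5.02 on day 1 and by 5.39 ± 0.38 on day 7 (adjusted p = 1.43e-07 on day 7 by limma). CCDC80, a secreted matrix protein, rose by 3.13 on day 1 and 6.36 ± 0.59 on day 7 (adjusted p = 1.88e-06), and CDC42EP3, an effector of the GTPase CDC42, by 2.29 and 4.88 ± 0.20 (1.27e-09). BDNF, a neurotrophin, rose by 3.30 on day 1 and 4.39 ± 0.24 on day 7 (adjusted p = 1.32e-08 by limma). A further 3 genes were picked after their values were seen. GADD45B, a stress response gene, fell by 1.14 on day 7 (adjusted p = 0.0077 by limma). BIRC5, the mitotic protein survivin, fell by 2.01 on day 1 (adjusted p = 2.12e-04). AREG, an EGF receptor ligand, rose by 1.91 on day 1 (adjusted p = 0.0443) and differed by -1.23 on day 7, which was not called.

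**Figure D5:**
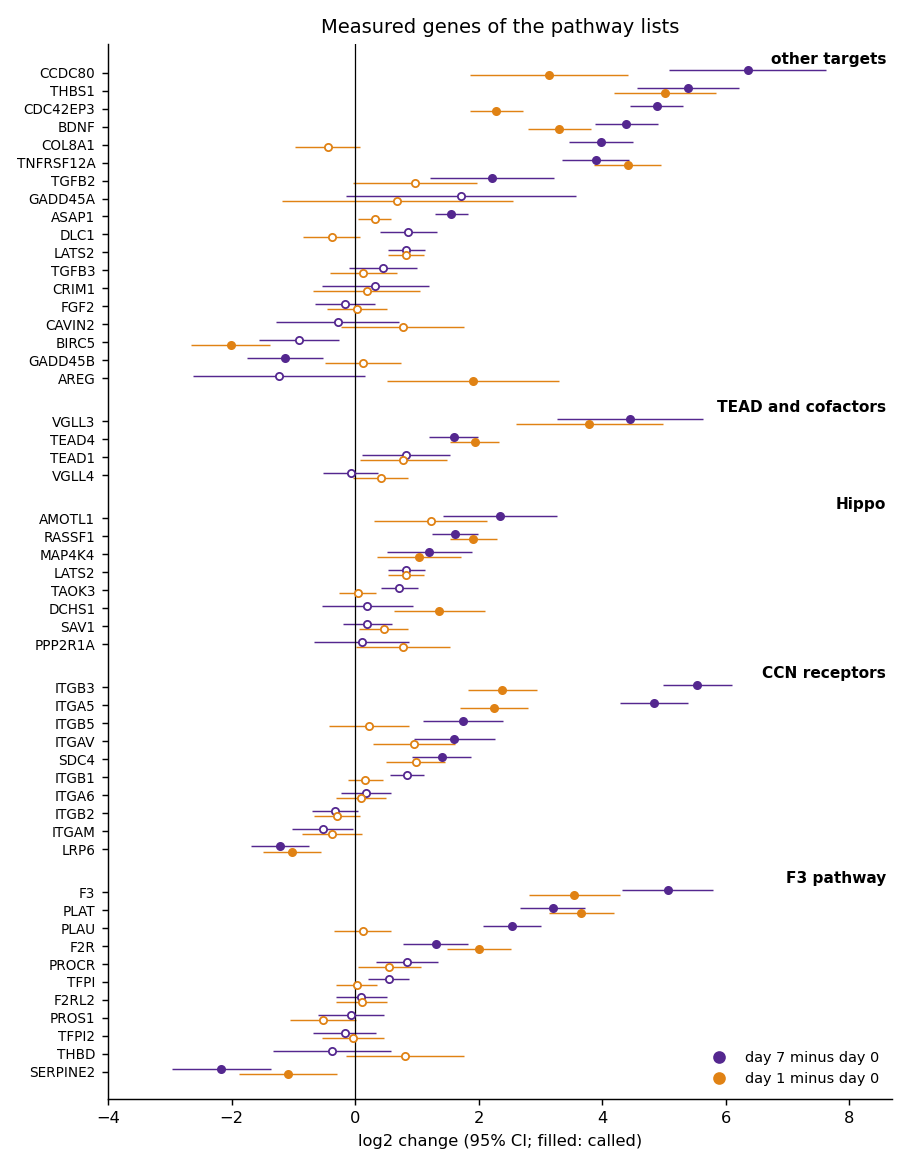
Log2 change of each measured gene of 5 lists (rows) on day 7 and on day 1, each minus day 0 (horizontal axis), with 95% confidence intervals from limma and filled points for called changes. Most called genes lie to the right of 0 on day 7, and GADD45B, LRP6 and SERPINE2 are the ones called to the left.

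CYR61 signals through integrins, and of 12 listed receptors and co-receptors of CCN proteins 10 were measured. On day 7 against day 0, 5 were called higher and 1 lower, beside 9.36% and 7.28% of all probe sets, with a median change of 1.12 against -0.05. On day 1 against day 0, 2 were higher and 1 lower, beside 6.47% and 6.03% of all probe sets, with a median of 0.20 against -0.0012. ITGB3 and ITGA5, integrin subunits, rose by 5.54 ± 0.26 and 4.84 ± 0.26 (adjusted p = 4.28e-09 and 1.13e-08 by limma). ITGAV, which pairs with ITGB3 and with ITGB5, rose by 1.61 ± 0.31, and ITGB5 by 1.74 ± 0.30 (adjusted p = 0.00107 and 5.03e-04). CYR61 was the only measured gene of the 6 CCN genes listed.

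Around F3, 11 of 16 listed genes of clotting and plasminogen activation were measured, F3 among them, and 4 were called higher and 1 lower on day 7 against day 0, beside 9.36% and 7.28% of all probe sets, with a median change of 0.54 against -0.05. On day 1 against day 0, 3 were higher and 1 lower, beside 6.47% and 6.03% of all probe sets, with a median of 0.12 against -0.0012. PLAT and PLAU, the tissue and urokinase plasminogen activators, rose by 3.20 ± 0.24 and 2.54 ± 0.22 (adjusted p = 2.84e-07 and 7.54e-07 by limma). PLAT had risen by 3.66 on day 1, where PLAU differed by 0.12. SERPINE2, an inhibitor of thrombin and of both activators, fell by 2.16 on day 7 (adjusted p = 4.72e-04). Around ANKRD1, 4 of 7 listed family members and titin partners were measured, ANKRD1 among them. ANKRD1 itself was the only one called on day 7 against day 0, beside 9.36% of all probe sets called higher and 7.28% lower. Its call was lost when some single arrays were left out. YBX1, a binding partner of ANKRD1, was 0.56 ± 0.15 higher (adjusted p = 0.00899 by limma), under the minimum change.

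Some lists of cell type markers also changed between day 0 and day 7. The mean log2 level of 7 smooth muscle and pericyte markers was 9.49 to 9.98 on day 7, against 5.71 to 6.23 on day 0, and 6 of the 7 were called higher; MCAM, the other, had a day 7 mean below 4.41. On day 1, when F3 had risen and CYR61 and ANKRD1 had no called change, this mean was 7.65 to 7.95. The mean of 7 theca and stromal markers was 8.41 to 8.45 on day 7, against 6.84 to 6.87 on day 0 and 6.37 to 6.67 on day 1. On day 7 against day 0, 3 of them were called higher and 2 lower, with a median change of 0.30. The mean of 10 granulosa markers was 6.60 to 6.72 on day 7, against 9.53 to 9.67 on day 0, with 5 called lower and a median change of -1.68. Of all probe sets, 9.36% were called higher and 7.28% lower between these days, with a median change of -0.05. The part of these markers in the changes of F3, CYR61 and ANKRD1 was not tested.

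Cells that carry F3 or ANKRD1 elsewhere in the body were checked too. The 9 endothelial markers averaged 5.09 to 5.33 on day 7, against 4.92 to 5.18 on day 0. On day 7 PECAM1 and ERG were called higher, by 1.49 and 3.43, and TIE1 fell by 2.40. Of all probe sets, 9.36% were called higher and 7.28% lower between day 0 and day 7, to be read beside the counts of each list here. CDH5, TEK and KDR lay below the lower quartile on all 15 arrays, and VWF, FLT1 and CLDN5 were not called. The part of these markers in the changes of F3 was not tested. Of 5 macrophage and leukocyte markers 1 was called higher, and the list averaged 4.49 to 4.72 on day 7, against 4.29 to 4.57 on day 0, with PTPRC and AIF1 below 4.41 on day 7. The 7 cardiac and skeletal muscle markers averaged 4.07 to 4.41 on day 7, against 4.11 to 4.47 on day 0, with 0 called by limma and 0 at an unadjusted p under 0.05, and TNNT2, ACTC1, MYL2 and MYOD1 had day 7 means below 4.41. The 3 red blood cell markers averaged 6.36 to 6.46 on day 7, against 6.55 to 6.97 on day 0, with 0 called by limma and 1 at an unadjusted p under 0.05.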

How the data were processed

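The deposited log2 intensities were made with RMA, per the submitters' processing notes. In general RMA corrects background, quantile-normalizes the arrays and gives 1 value per probe set; the sources used here do not give its version or settings. Of 24123 probe sets, 124 controls were left out. Of the rest, 10069 had 1 gene symbol, 198 several and 13732 none, and only those with 1 symbol were named. Positions and sequences are not given, since no genome was used. The number of arrays limits the precision.

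A linear model with 1 mean for each day was fitted to the 15 arrays (limma 3.58.1, R 4.3.3, empirical Bayes), and all 10 pairs of days were compared, with the moderated F test for the time course. Where a gene had several probe sets, the one with the highest mean stood for it. The members, gene lists and tests were chosen with earlier results of these data known. The text names the members, up to 4 genes of each list by the largest called change of day 7 against day 0 (if fewer than 2 were called, the brightest), TEAD and LATS genes always, and for each member the 3 genes with the highest correlation. The lists also hold CCN receptors, marker genes and partners of the members. LATS2 stands in 2 lists. The fit was tested on simulated data.

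Pairing by replicate number was examined through each array's deviation from its day mean. The correlation of same-numbered arrays was over 0.1 for every pair in 9 of 10 comparisons, and 0.0609 to 0.333 in day 1 against day 0. A departure of replicate 1 alike on all days would give the same, and nothing in the labels pairs the arrays, so the fit used no block.

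The scaling alternatives were cyclic loess, another round of quantile normalization and a shift of all arrays to 1 median. The fit was also run with array weights, with trend and robust eBayes, with a replicate block, without a minimum change, without the dimmest 40% of probe sets, on the 6 arrays of a comparison alone, on replicates 2 and 3 only, without each array in turn, and with the other ANKRD1 probe set.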

Additional observations from a re-analysis of the deposited data

How the results depend on the processing

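With 3 arrays a day small changes cannot be placed firmly, and calls near the threshold moved. In the alternatives other than leaving out single arrays, day 1 against day 0 and the time course kept their counts of called members. Against day 0, day 7 called 2 of 3 instead of 3, without CYR61, after the second quantile normalization, with cyclic loess, with array weights, with replicates 2 and 3 only and on its 6 arrays alone. Against day 1, day 7 called 3 instead of 2, with CYR61 added, with array weights, with replicates 2 and 3 only and on its 6 arrays alone. Against day 2, day 7 called 3 instead of 2, with F3 added, in 9 of 10 of them, all but no minimum change. Against day 0, day 2 called 2 of the 3 members with array weights and with replicates 2 and 3 only, where all arrays called 1. The added member was CYR61, called lower, at -1.42 with array weights and -1.55 with replicates 2 and 3 only. Day 2 against day 1 called 1 in the same alternatives, where all arrays called 0, and this was again CYR61 called lower, at -1.10 and -1.02. Day 4 against day 1 called 1 with the replicate block, where no block called 0. Day 4 against day 2 called 1 instead of 0 in 8 alternatives: the second quantile normalization, the shift to the same median, cyclic loess, without the dimmest probe sets, trend and robust settings, array weights, the replicate block, and replicates 2 and 3 only. Day 7 against day 4 called 1 instead of 0 with array weights, whose estimation stopped before it converged. The causes were not tested.

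When each array was left out in turn, the number of members called was 1 to 1 for day 1 against day 0, 1 to 2 for day 2, 1 to 2 for day 4 and 1 to 3 for day 7, each against day 0. The added call of day 2 was CYR61, called lower without day 0 replicate 1. It was 0 to 0 for day 2, 0 to 1 for day 4 and 1 to 3 for day 7 against day 1, 0 to 1 for day 4 and 0 to 3 for day 7 against day 2, 0 to 0 for day 7 against day 4, and 2 to 3 for the time course.

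Of the changes that turned sign, none was called with all arrays or with the sign turned, but ANKRD1 on day 7 against day 4, at 0.65, was 1.62 and called with array weights (adjusted p = 0.0187). CYR61, 0.15 on day 1 against day 0, was -0.0065 after the second quantile normalization, -0.0929 with cyclic loess, -0.32 with array weights, -0.52 with replicates 2 and 3 only, and -0.40 to 0.45 with each array left out. ANKRD1, -0.47 there, was 0.017 with replicates 2 and 3 only and 0.18 on its other probe set, which also gave 0.11 for day 2 against day 0. For day 2 against day 1 ANKRD1 was 0.09, against -0.0890 with array weights, -0.18 with replicates 2 and 3 only, -0.0691 on the other probe set and -0.13 to 0.23 with each array left out. For day 7 against day 4 it was -0.10 on the other probe set, with ranges of -0.0618 to 1.70 for ANKRD1 and -0.016 to 0.66 for CYR61 with each array left out. ITGB5, day 1 against day 0, was -0.0609 with array weights and -0.0885 with replicates 2 and 3 only. PLAU, day 1 against day 0, ranged from -0.020 to 0.27 with each array left out.

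With no minimum change, 6020 instead of 3001 probe sets were called on day 1, 6248 instead of 3306 on day 2, 7360 instead of 3811 on day 4 and 7514 instead of 3993 on day 7 against day 0. It called 1461 instead of 729 on day 2, 3757 instead of 1838 on day 4 and 4524 instead of 2168 on day 7 against day 1, and 1002 instead of 608 on day 4 and 2037 instead of 1134 on day 7 against day 2. Day 2 against day 1 called 1349 with array weights, 1321 with replicates 2 and 3 only and 451 to 986 with each array left out. Day 4 against day 2 called 371 on its 6 arrays alone. Day 7 against day 4, with 14, called 4 without the dimmest probe sets, 144 with array weights, 41 with the replicate block, 55 with replicates 2 and 3 only, 0 on its 6 arrays alone and 4 to 15 with each array left out. The replicate block changed member calls for CYR61 on day 4 against day 2, ANKRD1 on day 4 against day 1 and F3 on day 7 against day 2, and no other member call.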
